A study of Mus musculus with 67 samples.

Results

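The comparison described here set the aorta of hypertensive BPH/2J mice against the aorta of normotensive BPN/3J mice. It took in every aorta array labelled for either strain, 9 BPH and 5 BPN arrays, which is 14 of the 67 arrays of the series. The other arrays held aorta of hypotensive BPL/1J mice and heart, kidney and liver of all these strains. All mice were males of 12 weeks, none carried a treatment, and the vessel was taken from the root down to the left renal artery. Stated systolic pressures were 142 ± 5 mmHg in BPH mice, 69 ± 1.7 mmHg in BPL mice and 94 ± 6 mmHg in BPN mice, with the kind of error not named. These are inbred lines bred for their pressure, so BPH and BPN mice differ across the genome as well as in pressure, and the contrast cannot separate these. The design text names 5 mice per strain while the aorta groups hold 9 BPH, 9 BPL and 5 BPN arrays, and the arrays are not tied to animals. Some arrays may therefore share a mouse, and p-values measure only the spread between arrays.

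The wall of a conduit artery is built from an endothelium, layers of smooth muscle between elastic sheets, and an outer coat of fibroblasts, collagen, nerves and fat. Smooth muscle cells lay down most of the elastin and fibrillar collagen, and signals of the Wnt and TGF-β/BMP families set how much matrix these cells make and whether they stay contractile. Tone is set by receptors, calcium, potassium channels and the cyclic nucleotides cGMP and cAMP inside the same cells.

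Values are log2 intensities of a probe set on an array, and differences are BPH minus BPN on that scale with the standard error of the limma fit. A gene was represented by its probe set of highest mean over the 23 aorta arrays. It was called, and is said to have risen or fallen, where the limma p-value adjusted over all 38385 probe sets was below 0.05. By this rule 2243 of 19147 genes (11.7%) were called, 1101 higher (5.75%) and 1142 lower (5.96%) in BPH aorta, and the median gene differed by 0.0043. Each count below is to be read against those shares. Where a strain's mean lay under 3.03, the highest lower quartile of any aorta array, a level may be background. A level or fold given for a gene is that of its representing probe set. Probe sets of the same gene did not always agree, as given below for Spon1, Pdxdc1, Slx1b, Acpp and Xdh. Those of Tgfb2, Itga4 and Fez1 all fell. Whether sequence differences between the strains under the probes alter these intensities was not tested.

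The arrays carried the marker genes of the labelled tissue. Smooth muscle markers had a mean level of 12.35 to 12.49 on BPH arrays and 12.35 to 12.52 on BPN arrays, with 0 of 7 called. Endothelial markers lay between 8.87 and 9.19 on BPH arrays and between 8.82 and 9.23 on BPN arrays. By limma 1 of 21 was called higher and 3 lower, 19.05% against 11.7% of all genes. Sox17 and Ptprb were among those lower and stayed called whichever 1 of the 14 arrays was left out. Adrenal and kidney markers stayed low, at 3.43 to 3.74 on BPH arrays and 3.57 to 3.73 on BPN arrays, and 4 of the 10 were under the lower quartile in both strains. Some arrays stood apart in markers of neighbouring tissue. BPH 5 was the highest of all 14 arrays in striated muscle markers, at 7.37 against a BPH median of 5.96. BPN 14 was the lowest in brown adipocyte markers, at 8.41 against 8.99 to 9.67 on the other BPN arrays, and in white adipocyte markers. BPH 10 was the highest BPH array in antigen presentation genes, at 8.64 against a BPH median of 7.86. These levels are given again beside each result they move with.

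**Figure D1:**
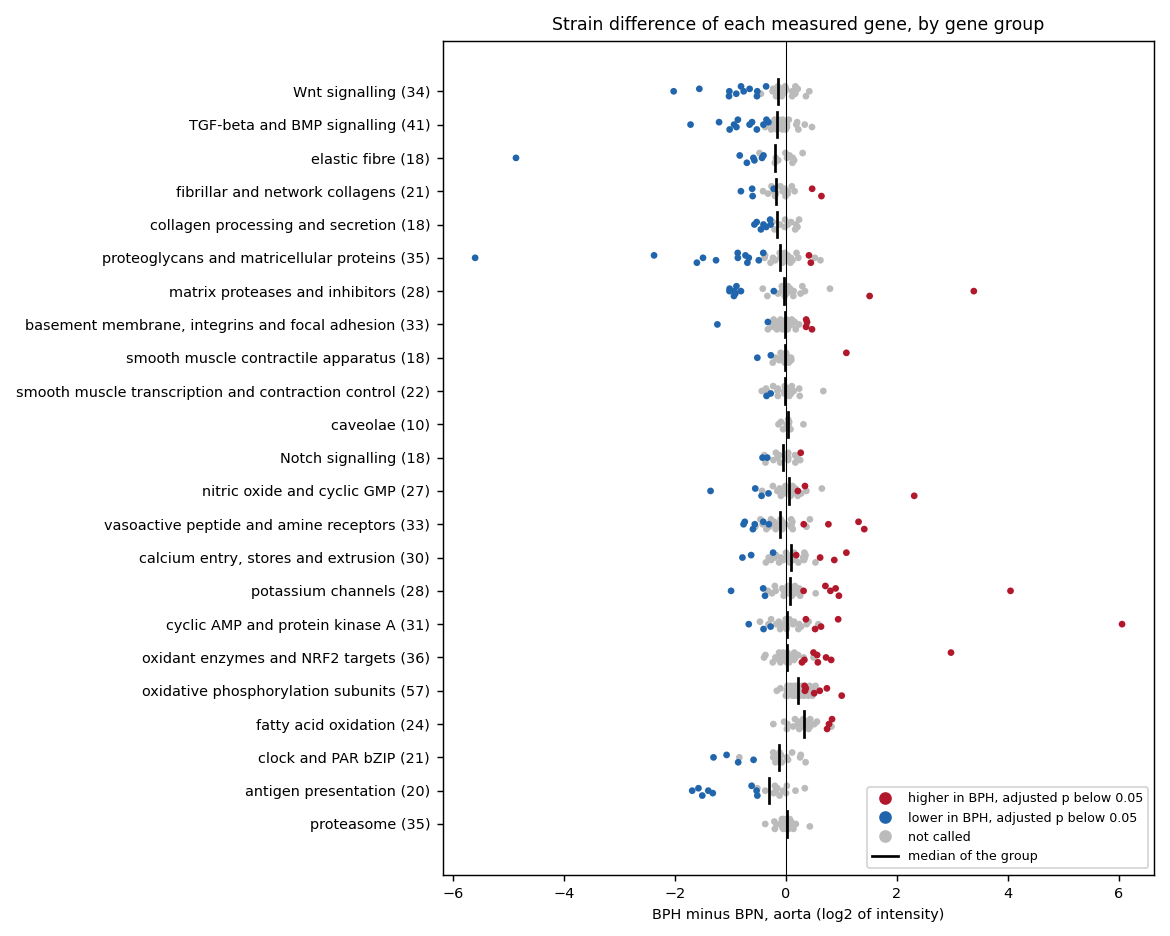
Difference between BPH and BPN aorta (x axis, log2 of intensity) for every measured gene of 23 gene groups (rows, number measured in brackets). Red points were called higher in BPH, blue points lower and grey points were not called; the black bar is the median of the group. Wnt, TGF-β/BMP, elastic fibre and collagen processing genes have called points on the left alone, while oxidant genes have them on the right alone.

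Wnt signalling acts through secreted ligands, Frizzled receptors and a set of secreted antagonists, and some transcripts of each kind were lower in BPH aorta. Activity of the pathway was not measured. Of 34 measured genes 0 rose and 11 fell, and 9 did not overlap between the strains, where 5.88% of all genes did not overlap. The list median was -0.15. The strongest changes were in the antagonists. Wif1, which binds Wnt proteins outside the cell, ran from 6.50 to 7.22 on the BPH arrays with a median of 6.96, and stood at 8.66, 9.17, 8.81, 9.13 and 8.94 on the BPN arrays. Every BPH array was below every BPN array, a 4.07-fold lower level (log2 -2.03 ± 0.13, limma adjusted p = 1.4e-11). BPL aorta, shown for orientation, ran from 6.25 to 6.75 for Wif1.

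The secreted Frizzled-related proteins, which carry a Frizzled-like domain and trap Wnt ligands, followed the same pattern. Sfrp4 lay between 8.92 and 9.33 in BPH aorta (median 9.13), against 10.70, 10.93, 10.65, 10.37 and 10.78 in BPN aorta (log2 -1.56 ± 0.10, limma adjusted p = 2.03e-11). Sfrp2 was at 11.15 to 11.57 in BPH aorta (median 11.36), against 12.43, 12.36, 12.37, 12.45 and 12.31 in BPN aorta (log2 -1.03 ± 0.08, limma adjusted p = 6.45e-10). Neither gene had an array of one strain within the range of the other. Frzb, also called Sfrp3, fell 2.03-fold (log2 -1.02 ± 0.08) and Sfrp1 fell 1.7-fold on both of its probe sets (log2 -0.76 ± 0.13). For Frzb and Sfrp1 too the strains did not overlap.

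Ligands and receptors of the pathway were lower by smaller amounts. The ligand Wnt2b had a median of 4.98 in BPH aorta and 5.43 to 6.36 in BPN aorta (log2 -0.90 ± 0.20, limma adjusted p = 0.00313). Wnt2, a ligand of the canonical branch, fell by 0.66 on the log2 scale (± 0.17). The receptor Fzd2 stood at 11.05 to 11.47 in BPH arrays and at 11.99, 12.19, 12.12, 12.21 and 12.04 in BPN arrays (log2 -0.81 ± 0.08, limma adjusted p = 2.04e-08), although its second, dimmer probe set was not called at -0.26. Fzd6 and Wnt5b, with Fzd2 and Sfrp1 named after their values were seen, fell by 0.53 and 0.52. The fall in antagonists and the fall in ligands and receptors thus appear side by side in the same arrays. Leaving out any 1 of the 14 arrays left 10 or 11 genes called lower.

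TGF-β and BMP signalling turns secreted ligands into phosphorylated SMAD proteins, and among its own targets are the inhibitory SMADs and the ID proteins. Of 41 measured genes of this pathway 0 rose and 12 fell (median -0.17), with 11 to 13 called lower when any 1 array was left out. As the tissue is bulk, fewer cells of a type and less RNA per cell cannot be told apart for these or any later genes. Among the ligands, Tgfb2 lay between 10.80 and 11.31 on BPH arrays (median 11.20), against 12.10, 12.13, 12.05, 12.29 and 12.32 on BPN arrays. The groups were separate and all 3 probe sets of the gene fell (log2 -1.02 ± 0.10, limma adjusted p = 2.12e-08). Tgfb1 gave -0.16 ± 0.14 (limma adjusted p = 0.598), with 6.998 to 7.80 in BPH aorta and 7.32 to 7.78 in BPN aorta.

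The BMP ligands Bmp4, Bmp6 and Bmp7 were lower as well. Bmp4, made by endothelium and smooth muscle, ran from 9.92 to 11.13 on BPH arrays (median 10.65) and stood at 11.74, 11.85, 11.78, 11.47 and 11.07 on BPN arrays. BPN 15, the lowest of its strain for Bmp4, lay inside the BPH range (log2 -0.94 ± 0.17, limma adjusted p = 0.000305). Bmp7, on a dim probe set, was at 3.01 to 5.15 in BPH aorta and at 5.37 to 6.05 in BPN aorta (log2 -1.72 ± 0.36, limma adjusted p = 0.00178), while its other probe set gave 0.24 and was not called. Bmp6 fell by 0.87 (± 0.21).

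Some transcripts that the pathway itself induces were also called lower. The ID genes Id1 and Id3 of the list were not among the called genes. Smad6, the inhibitory SMAD of the BMP branch, ran from 7.15 to 8.48 on BPH arrays (median 7.73), against 8.86, 9.15, 9.62, 8.60 and 8.50 on BPN arrays. The lowest BPN array was just above the highest BPH array (2.31-fold lower, log2 -1.21 ± 0.18, limma adjusted p = 3.32e-05). Smad7, which blocks the TGF-β receptors, had a BPH median of 9.05 against 10.61, 10.49, 10.35, 10.03 and 9.31 on BPN arrays, with BPN 15 inside the BPH range (log2 -0.90 ± 0.21, limma adjusted p = 0.0052). Id2, an inhibitor of bHLH factors and a BMP target, was at 10.76 to 11.40 in BPH aorta and 11.79, 11.92, 11.84, 11.60 and 11.40 in BPN aorta (log2 -0.66 ± 0.11, limma adjusted p = 0.000102). The type I receptor Acvr1 (-0.41 ± 0.08), the inhibin chain Inhbb (-0.53 ± 0.11), the BMP SMAD Smad9 (-0.61 ± 0.15) and the ubiquitin ligase Smurf2 (-0.32 ± 0.08) fell too. Skil, a repressor of SMAD targets, fell by 0.35, a call not made without BPN 13 or BPN 14 (limma adjusted p = 0.0593 at its highest). Smad7, Bmp6, Bmp7 and these last genes were named after their values were seen.

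Promoter windows of Smad6 and Id2 are shown as examples of called genes whose windows hold a sequence that SMAD proteins are known to bind. The RefSeq windows of build GRCm38.p6 run from 250 bases before to 50 bases after a transcription start, and 28 of the 41 pathway genes have one. The palindrome GTCTAGAC was searched, which is its own reverse complement, and so was the GC-rich box GGCGCC. The palindrome is in 0.213% of all 32851 windows and, among the pathway genes, in that of Smad6 alone, at chr9:64022032-64022087 on the minus strand, where it starts 4 bases before the transcription start. The box is in 11.9% of all windows. Counted by gene, in any window of the gene, it is in 9 of the 28, which is not directly comparable with a share of windows. Among these 9 are 3 called genes, Id2, Smad9 and Smurf2. The stretch of Id2 is shown, at chr12:25096294-25096342 on the minus strand. Capitals mark the motif.
Smad6: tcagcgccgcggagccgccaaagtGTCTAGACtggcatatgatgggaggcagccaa
Id2: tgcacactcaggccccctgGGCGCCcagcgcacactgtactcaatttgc
A match is a description of these letters and not evidence of binding in the aorta.

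**Figure D2:**
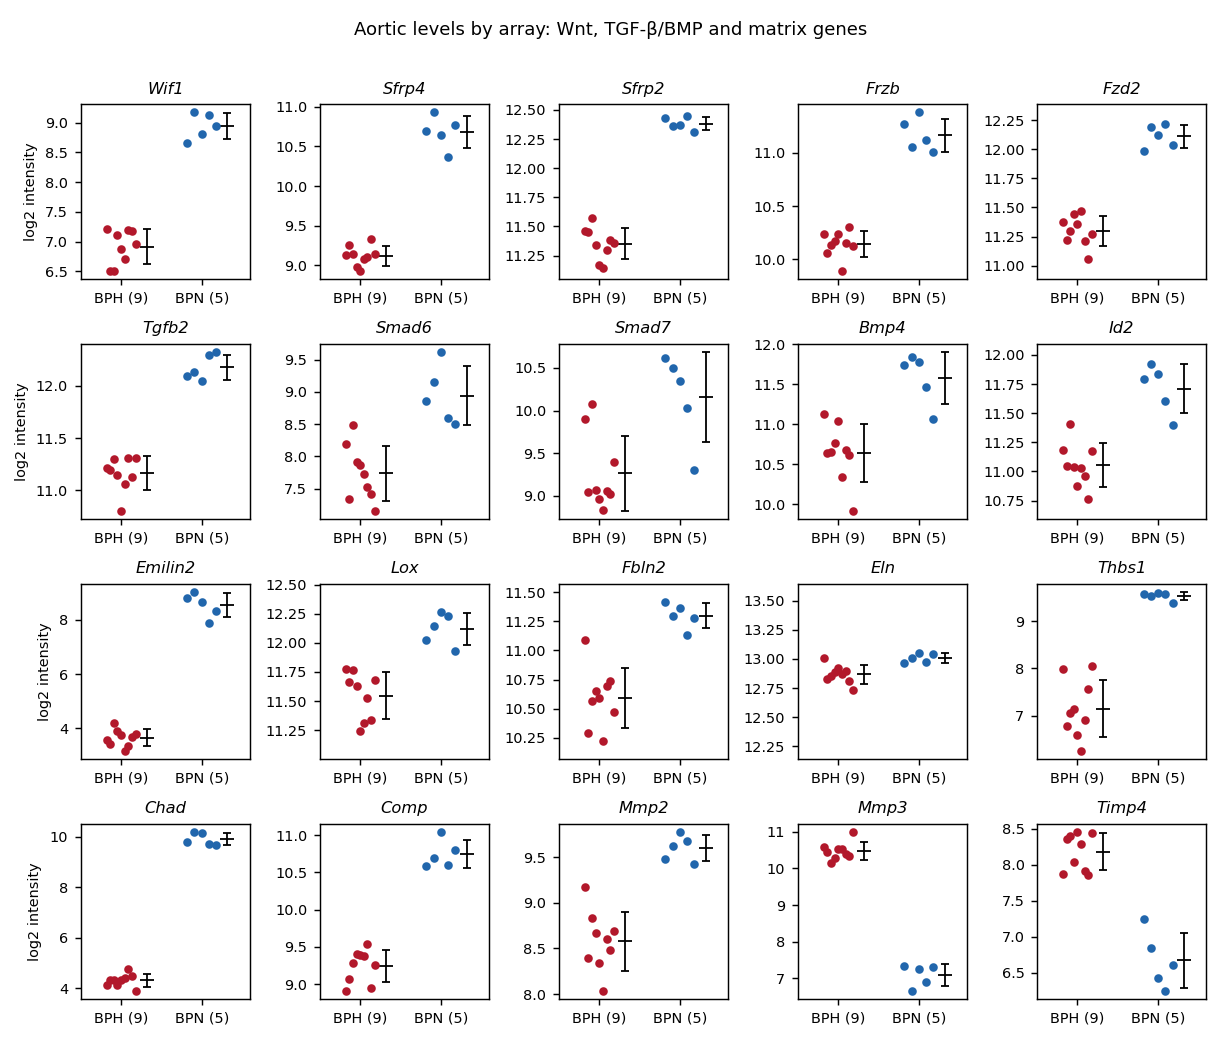
Log2 intensity (y axis) of 20 genes of the Wnt and TGF-β/BMP pathways and of the matrix on each BPH (red, 9) and BPN (blue, 5) aorta array, with the mean and SD of each strain in black. Wif1, Tgfb2, Emilin2, Thbs1, Chad and Comp have all BPH arrays below all BPN arrays, Mmp3 and Timp4 have them above, and Eln overlaps.

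The elastic fibre is a core of elastin on a scaffold of microfibrils. Of 18 measured genes 0 rose and 7 fell (median -0.19), 6 of them with separate groups. Emilin2, a glycoprotein of the elastin and microfibril interface, ran from 3.17 to 4.20 on BPH arrays (median 3.70), against 8.80, 9.01, 8.65, 7.86 and 8.32 on BPN arrays, a 29.2-fold lower level. Fbln2, a fibulin of vessel walls, was at 10.22 to 11.09 in BPH aorta (median 10.60), against 11.42, 11.29, 11.36, 11.14 and 11.28 in BPN aorta (log2 -0.71 ± 0.12, limma adjusted p = 0.000216). Lox, the oxidase that crosslinks elastin and collagen, was at 11.24 to 11.77 in BPH aorta and at 12.02, 12.14, 12.26, 12.23 and 11.93 in BPN aorta (log2 -0.57 ± 0.10, limma adjusted p = 0.000272), and its second probe set fell by 0.81. Its relative Loxl4 fell by 0.59. Fbln5, which tethers elastin to cells (-0.84 ± 0.20), and Ltbp2, a microfibril protein (-0.43 ± 0.11), also fell and were named after their values were seen. Eln itself stood at 12.73 to 13.01 in BPH aorta and 12.96 to 13.05 in BPN aorta, and did not pass (log2 -0.14 ± 0.06, limma adjusted p = 0.147). Eln passed, as lower in BPH aorta, with a pseudocount of 16 and with a trended, robust prior, but under none of the other 7 settings tried nor with any 1 array left out (limma adjusted p up to 0.281).

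Collagen chains are modified, cut and exported by a set of helper proteins before they form fibrils. Of 18 genes of collagen processing 0 rose and 7 fell (median -0.16), a count that ranged from 5, without BPN 14, to 8 when arrays were left out. Pcolce2, an enhancer of procollagen cleavage, was at 11.65 to 11.95 in BPH aorta (median 11.81) and at 12.36, 12.16, 12.30, 12.24 and 12.22 in BPN aorta (log2 -0.45 ± 0.07, limma adjusted p = 0.000123). The procollagen proteinases Adamts3 (-0.57 ± 0.11) and Bmp1 (-0.41 ± 0.10), the prolyl hydroxylases' subunit P4ha2 (-0.53 ± 0.11) and the hydroxylation cofactor Crtap (-0.28 ± 0.07) fell as well, Bmp1 being named after its value was seen. Among 21 collagen chains 2 rose and 4 fell (median -0.18). Col4a4, a basement membrane chain, was lower on both probe sets (log2 -0.81 ± 0.10, limma adjusted p = 3.24e-06). The short-chain collagens of vessel walls moved in opposite directions, with Col8a2 at 7.98 to 8.62 in BPH aorta against 7.38 to 7.98 in BPN aorta (log2 0.64 ± 0.15) and Col8a1 at 6.94 to 7.58 against 7.74 to 8.05 (log2 -0.60 ± 0.13, its second probe set at 0.10 and not called). The main fibrillar chain Col1a1 gave -0.10 ± 0.06 (limma adjusted p = 0.35) and did not pass. Col1a2 passed at -0.22 ± 0.06 but not without BPN 13 (limma adjusted p = 0.0535).

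Matricellular proteins, which sit in the matrix and steer cells rather than bear load, included some of the largest falls. Of 35 proteoglycans and matricellular genes 2 rose and 12 fell (median -0.11), and 11 to 13 fell when any 1 array was left out. Thbs1, a matricellular activator of latent TGF-β, ran from 6.25 to 8.04 on BPH arrays (median 7.06), against 9.57, 9.53, 9.60, 9.57 and 9.38 on BPN arrays. The groups were separate on both probe sets (5.21-fold lower, log2 -2.38 ± 0.23, limma adjusted p = 2.3e-08). Comp, a thrombospondin of tendon, cartilage and vessel wall, was at 8.91 to 9.54 in BPH aorta (median 9.29), against 10.59, 10.69, 11.04, 10.60 and 10.79 in BPN aorta (log2 -1.50 ± 0.14, limma adjusted p = 3.17e-08). Chad, a leucine-rich cartilage protein, was at 3.90 to 4.75 in BPH aorta and at 9.81, 10.20, 10.16, 9.72 and 9.68 in BPN aorta. Sparcl1, an antiadhesive relative of SPARC, fell (log2 -1.26 ± 0.10, limma adjusted p = 3.79e-10), as did the small proteoglycan Lum (-0.67 ± 0.09). The collagen-binding proteoglycan Fmod rose (0.45 ± 0.11) and Dcn gave 0.03 ± 0.06 (limma adjusted p = 0.875). Spon1 cannot be given a direction, since its brightest probe set fell by 1.61 while 2 of its 4 probe sets were called higher, by up to 4.30.

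Because Chad and Comp are also cartilage genes, the whole chondrocyte marker list was read beside them. Of 18 markers 1 rose and 4 fell (median -0.08), Chad and Comp being among those that fell. The mean level was 5.31 to 5.48 on BPH arrays and 5.82 to 5.93 on BPN arrays. As Chad and Comp belong to the list, this mean moves with them and is no separate check. The defining cartilage chains Col2a1 and Col9a1, with Matn1, Matn3 and Epyc, were under the lower quartile in both strains.

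Matrix proteases moved in both directions. Of 28 proteases and inhibitors 2 rose and 8 fell (median -0.04). Mmp3, stromelysin 1, which cleaves proteoglycans and activates other proteases, was at 10.15 to 10.996 in BPH aorta (median 10.46), against 7.34, 6.66, 7.26, 6.89 and 7.31 in BPN aorta (10.5-fold higher, log2 3.38 ± 0.16, limma adjusted p = 2.38e-14). Timp4, a metalloprotease inhibitor of cardiovascular tissue, was at 7.86 to 8.46 in BPH aorta and at 7.24, 6.84, 6.42, 6.25 and 6.61 in BPN aorta (log2 1.51 ± 0.14, limma adjusted p = 1.32e-08). No array of either strain crossed the gap for Mmp3 or Timp4. In the other direction, Mmp2, gelatinase A, stood at 8.04 to 9.18 in BPH aorta (median 8.60) and at 9.48, 9.62, 9.78, 9.68 and 9.43 in BPN aorta (log2 -1.02 ± 0.12, limma adjusted p = 1.83e-06), and both of its probe sets fell. Ctsk, an elastin- and collagen-degrading cathepsin, fell by 0.93 (± 0.10) and Adamts9, a versican-cleaving enzyme, by 0.91 (± 0.15). Mmp12, the macrophage elastase, fell by 1.02 on a dim probe set, and its other probe set was not called at -0.15.

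Cell-to-matrix contacts changed at single members. Of 33 basement membrane, integrin and focal adhesion genes 4 rose and 2 fell, and 1 to 4 rose when arrays were left out, fewest without BPN 12. Itga4, the α4 integrin that binds fibronectin and VCAM1, was at 8.48 to 9.05 in BPH aorta (median 8.78), against 9.85, 9.93, 10.10, 10.001 and 10.14 in BPN aorta (log2 -1.24 ± 0.10, limma adjusted p = 8.28e-10), and all 3 probe sets fell. Its ligands took opposite directions. Fn1, fibronectin, fell (log2 -0.33 ± 0.06, limma adjusted p = 0.000652), with 12.50 to 12.61 in BPH aorta and 12.80 to 12.94 in BPN aorta. Vcam1, an adhesion molecule for leukocytes, rose (log2 0.41 ± 0.10, limma adjusted p = 0.00574), with overlapping groups at 10.71 to 11.59 in BPH aorta and 10.59 to 10.81 in BPN aorta. Lama4, the endothelial laminin chain, rose by 0.47 (± 0.10).

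Of 18 contractile genes of smooth muscle 1 rose and 2 fell (median -0.02), which is 16.67% against 11.7% of all genes. In 4 of the 18 the strains did not overlap, against 5.88% of all genes. Of 22 genes that control smooth muscle transcription and contraction 0 rose and 2 fell. The list of the synthetic, as opposed to contractile, smooth muscle state had 2 of 17 genes called higher and 6 lower (median -0.06). That is 47.06% against 11.7% of all genes. Mmp3 and Vcam1 were the 2 that rose, and Thbs1, Lum, Fn1 and Col8a1, given above, were among those that fell. Acta2, smooth muscle actin, ran from 12.27 to 12.48 in BPH aorta and from 12.33 to 12.51 in BPN aorta (log2 -0.02 ± 0.06, limma adjusted p = 0.912). Myh11, smooth muscle myosin, ran from 12.85 to 13.06 in BPH aorta and from 12.89 to 13.05 in BPN aorta (log2 0.01 ± 0.06, limma adjusted p = 0.974). Myocd, the master coactivator of the contractile programme, ran from 11.72 to 12.22 in BPH aorta and from 11.79 to 12.13 in BPN aorta (log2 0.06 ± 0.08, limma adjusted p = 0.785, 95% interval -0.11 to 0.23). Synm, an intermediate filament protein, fell by 0.52 (± 0.10). Gata6, a transcription factor of smooth muscle, fell by 0.28, a call not made without BPH 3, BPH 8, BPN 11, BPN 12 or BPN 13 (limma adjusted p = 0.11 at its highest). Of 10 caveolae genes none was called by limma, and Cav1, the coat protein, gave -0.05 ± 0.05 with 12.42 to 12.53 in BPH aorta and 12.51 to 12.54 in BPN aorta.

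Pln, phospholamban, which restrains the calcium pump of the sarcoplasmic reticulum, was the contractile gene that rose. It was at 8.09 to 9.52 in BPH aorta (median 8.33), against 7.05, 7.57, 7.35, 7.71 and 7.37 in BPN aorta (log2 1.09 ± 0.17, limma adjusted p = 6.95e-05), on both probe sets. The calcium release channel Ryr2 rose too, with 9.32 to 9.96 in BPH aorta and 8.30, 8.85, 9.05, 9.45 and 8.80 in BPN aorta, BPN 14 lying inside the BPH range (log2 0.87 ± 0.13, limma adjusted p = 2.64e-05). The stretch-gated channel Piezo2 rose by 0.61 (± 0.12), and the inositol trisphosphate receptor Itpr3 fell by 0.79 (± 0.14). Over 30 genes of calcium entry, stores and extrusion 4 rose and 3 fell (median 0.09).

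Pln and Ryr2 are shared with striated muscle, and so are 2 more genes that rose. Tnnt2, cardiac troponin T, was at 8.43 to 9.12 in BPH aorta and at 6.75 to 7.23 in BPN aorta (log2 1.84 ± 0.11, limma adjusted p = 6.68e-12). Myh7, the slow myosin heavy chain, was at 8.43 to 9.62 in BPH aorta and at 7.76 to 8.07 in BPN aorta (log2 1.27 ± 0.15, limma adjusted p = 9.5e-07). In the striated muscle list, 5 of 22 markers were called higher and 1 lower, and their mean level was 5.73 to 7.37 on BPH arrays and 5.82 to 6.08 on BPN arrays, the 7.37 being BPH 5. Myh6, the cardiac myosin heavy chain, was at 11.02 on BPH 5, against a BPH median of 5.70 and 5.64 to 7.34 in BPN aorta. Without BPH 5 there were 6 higher and 4 lower. Tnnt2, Myh7, Pln and Ryr2 stayed called whichever of the 14 arrays was left out.

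Receptors and enzymes of vascular tone moved in both directions. In the nitric oxide and cGMP list 3 of 27 genes rose and 4 fell (median 0.06), and 1 rose without BPH 3, BPN 11, BPN 13 or BPN 15. Nos3, the endothelial nitric oxide synthase, rose by 0.34 (± 0.11, limma adjusted p = 0.0435), but in 11 of the 14 fits with 1 array left out the call was not made. Npr1, the guanylyl cyclase that answers natriuretic peptides, was at 9.98 to 10.93 in BPH aorta (median 10.51), against 8.17, 8.23, 8.22, 8.004 and 8.13 in BPN aorta, 4.96-fold higher with separate groups. BPL aorta lay between 7.84 and 8.59 for Npr1. Npr3, the receptor that clears the same peptides, was lower on both probe sets, at 8.33 to 8.60 in BPH aorta and 9.16, 8.75, 9.22, 9.14 and 8.84 in BPN aorta. Ddah1, which breaks down the nitric oxide synthase inhibitor dimethylarginine, ran from 4.97 to 7.02 in BPH aorta (median 6.31), against 7.89, 7.71, 7.68, 7.56 and 7.26 in BPN aorta. Both probe sets of Ddah1 fell (2.57-fold, log2 -1.36 ± 0.21, limma adjusted p = 6.17e-05).

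In the list of receptors and enzymes for vasoactive peptides and amines 4 of 33 genes rose and 6 fell (median -0.11). The G protein-coupled P2ry6, which contracts smooth muscle in answer to UDP, was at 9.76 to 10.40 in BPH aorta (median 10.16), against 8.91, 9.19, 9.11, 8.24 and 8.67 in BPN aorta (2.47-fold higher, log2 1.31 ± 0.14, limma adjusted p = 1.29e-07). P2ry2, a receptor for UTP and ATP, rose by 0.76 (± 0.10), also with separate groups. P2ry14, a receptor for UDP-glucose, was at 4.44 to 5.19 in BPH aorta (median 4.89), against 6.19, 5.79, 5.39, 5.29 and 5.34 in BPN aorta (log2 -0.77 ± 0.16, limma adjusted p = 0.00176). The ATP-gated channel P2rx1, the fast purinergic receptor of arterial muscle, was lower, at 8.39 to 8.91 in BPH aorta and 8.96, 9.15, 9.15, 9.55 and 9.50 in BPN aorta (log2 -0.56 ± 0.11, limma adjusted p = 0.000865). S1pr3, a receptor for sphingosine 1-phosphate, rose on 2 of 3 probe sets, with 7.67 to 8.52 in BPH aorta and 7.16, 7.14, 6.39, 5.93 and 6.94 in BPN aorta (log2 1.41 ± 0.22, limma adjusted p = 6.13e-05). Ece1, which makes endothelin, fell on 1 of 2 probe sets while the other, at 0.30, was not called. Calcrl, the receptor core for CGRP and adrenomedullin, rose by 0.32 (± 0.08).

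Potassium channels, which set the resting voltage of smooth muscle, rose in 6 of 28 genes and fell in 3 (median 0.08). Kcnk1, a two-pore leak channel, was at 9.80 to 10.45 in BPH aorta (median 10.01), against 5.96, 5.82, 6.00, 6.61 and 5.75 in BPN aorta, 16.5-fold higher. BPL aorta ran from 2.97 to 4.07 for Kcnk1, so all 3 strains stood apart on this probe set. Kcnab1, a β subunit of voltage-gated channels, was at 11.50 to 11.65 in BPH aorta and 10.62, 10.73, 10.78, 10.92 and 10.74 in BPN aorta (log2 0.80 ± 0.09, limma adjusted p = 8.59e-07), with the second probe set at 0.24 and not called. The vascular KATP channel split, its regulatory subunit Abcc9 rising (0.32 ± 0.06, 1 of 2 probe sets) and its pore Kcnj8 falling (-0.41 ± 0.10), while the pore Kcnj11 rose (0.71 ± 0.15). The accessory subunit Kcne3 fell by 0.99 (± 0.21). Kcnma1, the large-conductance calcium-activated channel, gave -0.04 ± 0.06 (limma adjusted p = 0.806) with 11.22 to 11.49 in BPH aorta and 11.32 to 11.46 in BPN aorta.

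In the cyclic AMP and protein kinase A list 5 of 31 genes rose and 3 fell (median 0.01), and 3 to 6 rose when arrays were left out, fewest without BPN 14. Sphkap, an anchor that binds type I protein kinase A, was at 10.42 to 11.55 in BPH aorta (median 10.84), against 5.51, 5.23, 3.89, 4.89 and 4.78 in BPN aorta. Prkar1b, a regulatory subunit of that type I kinase, was at 4.97 to 5.82 in BPH aorta and 4.40, 4.74, 4.16, 4.47 and 4.32 in BPN aorta (log2 0.94 ± 0.11, limma adjusted p = 1.46e-06). Adcy6, an adenylyl cyclase of vascular muscle, rose by 0.63 (± 0.11), with 10.10 to 10.73 in BPH aorta and 9.75 to 10.03 in BPN aorta. The groups were separate for Sphkap, Prkar1b and Adcy6. The phosphodiesterase Pde4b (-0.67 ± 0.13) and the anchor Akap12 (-0.41 ± 0.09) fell.

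**Figure D3:**
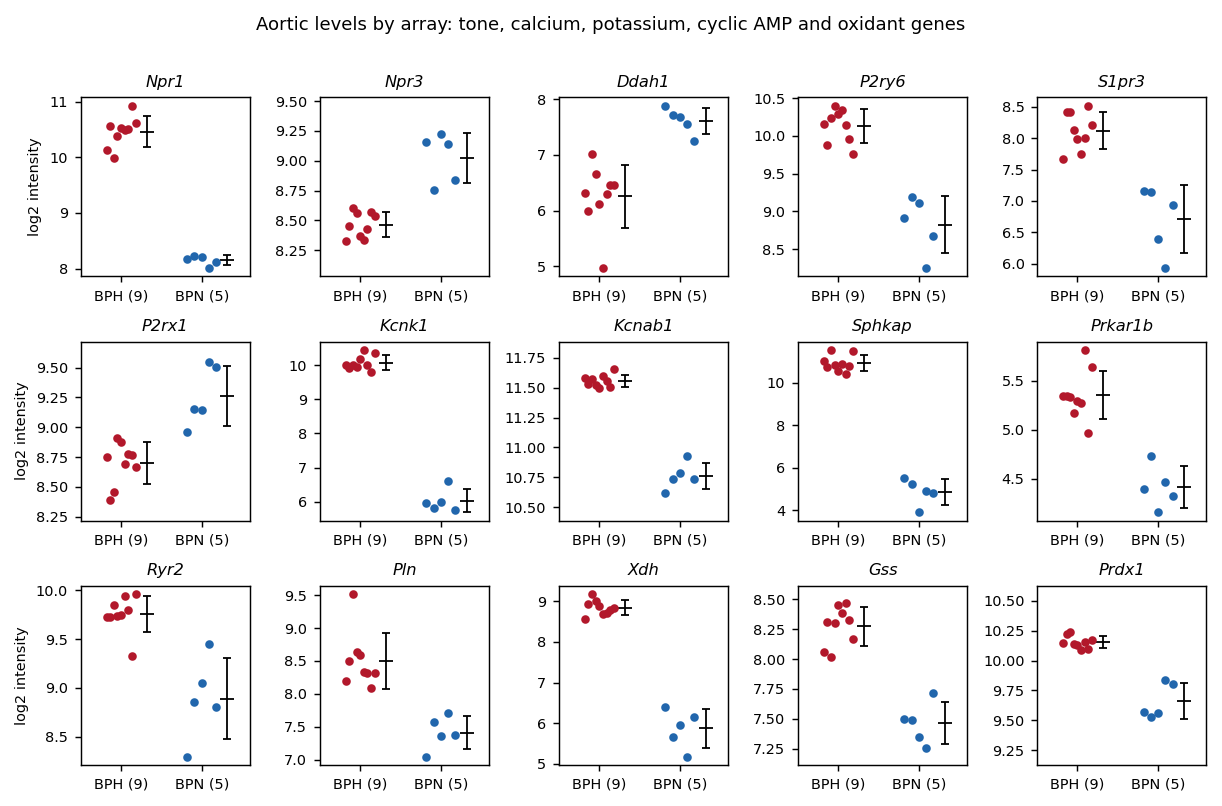
Log2 intensity (y axis) of 15 genes of vascular tone, calcium and potassium handling, cyclic AMP signalling and oxidant metabolism on each BPH (red, 9) and BPN (blue, 5) aorta array, with the mean and SD of each strain in black. Npr1, P2ry6, S1pr3, Kcnk1, Kcnab1, Sphkap and Xdh are higher on every BPH array than on any BPN array; Npr3, Ddah1 and P2rx1 are lower on every one.

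Oxidant and antioxidant genes, many of them targets of the stress factor NRF2, were called in 1 direction. Of 36 measured 8 rose and 0 fell (median 0.02), and 7 to 9 rose when any 1 array was left out. Xdh, xanthine dehydrogenase, which can release superoxide as its oxidase form, was at 8.56 to 9.19 in BPH aorta (median 8.83), against 6.40, 5.66, 5.96, 5.17 and 6.15 in BPN aorta (7.85-fold higher, log2 2.97 ± 0.15, limma adjusted p = 1.2e-13). Its second probe set gave 0.43 and was not called. Gss, which makes the last step of glutathione synthesis, was at 8.01 to 8.47 in BPH aorta and 7.50, 7.49, 7.35, 7.26 and 7.72 in BPN aorta (log2 0.81 ± 0.10, limma adjusted p = 1.1e-06). Gsr, which recycles glutathione, rose by 0.57 (± 0.10) and the peroxidase Prdx1 by 0.49 (± 0.08). The glutathione ligase subunit Gclc and the metal-binding metallothionein Mt2, named after their values were seen, rose by 0.56 (± 0.12) and 0.72 (± 0.15).

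The promoter windows of Prdx1 and Mt2 are shown because, among the 5 called genes of this list with a RefSeq window, they are the ones holding the core of the antioxidant response element, to which NRF2 is known to bind. The core was searched as TGACNNNGC on both strands and is in 12.4% of all 32851 windows. Counted by gene, in any window of the gene, it was in 6 of the 29 list genes with a window, which is not directly comparable. Of these, Gclm, Sod1, Srxn1 and Txnrd1 were not called. The window of Prdx1 is chr4:116685442-116685498 and that of Mt2 is chr8:94172515-94172571, both on the plus strand of GRCm38.p6, with the core in capitals.
Prdx1: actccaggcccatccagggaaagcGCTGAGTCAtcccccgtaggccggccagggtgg
Mt2: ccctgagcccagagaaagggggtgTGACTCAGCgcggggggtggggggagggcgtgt
On the arrays Prdx1 ran from 10.09 to 10.24 in BPH aorta and from 9.53 to 9.84 in BPN aorta, and Mt2 from 8.49 to 9.43 in BPH aorta and from 7.88 to 8.34 in BPN aorta. Neither gene overlapped between the strains.

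Clock genes form a daily transcription loop whose repressors and output factors cycle with it. Of 21 clock genes 0 rose and 4 fell (median -0.12), and 3 to 5 fell when any 1 array was left out. Nr1d1, the REV-ERBα repressor, ran from 8.26 to 10.16 in BPH aorta (median 9.32), against 10.62, 11.43, 10.57, 10.36 and 10.22 in BPN aorta. Nr1d2, its relative, had a BPH median of 9.08 against 9.75, 10.42, 10.14, 10.32 and 10.23 in BPN aorta, with BPN 11 inside the BPH range. Rora, which activates the same sites that REV-ERB represses, fell by 0.59 (± 0.14). Arntl, a core activator, gave -0.11 ± 0.14 (limma adjusted p = 0.752). The hour of dissection was not given, and clock transcripts follow the time of day. Tef, a PAR bZIP output factor, fell by 0.86 (± 0.22, limma adjusted p = 0.0108), and the call was not made without BPN 14 (limma adjusted p = 0.0506). Tef alone of the 4 called clock genes has in its windows the E-box CACGTG, its own reverse complement and the site of the core activators. The E-box is in 7.15% of all windows. Counted by gene, in any window of the gene, it is in 5 of the 18 clock genes with a window. Of these, Bhlhe41, Ciart, Cry1 and Per1 were not called. Both Tef windows, chr15:81802522-81802575 and chr15:81811252-81811305 on the plus strand, are shown with the E-box in capitals.
Tef, upstream start: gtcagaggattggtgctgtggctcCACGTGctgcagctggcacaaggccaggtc
Tef, downstream start: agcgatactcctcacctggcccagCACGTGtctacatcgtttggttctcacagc

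Lists of fuel oxidation genes and of brown fat markers had positive medians in BPH aorta. Of 57 oxidative phosphorylation subunits 7 rose and 0 fell, which is 12.28% against 11.7% of all genes, with a median of 0.21. Of 24 genes of fatty acid oxidation 3 rose and 0 fell (median 0.32), and of 24 genes of glycolysis and lactate 4 rose and 1 fell. Ndufv3, a complex I subunit, was at 9.96 to 10.59 in BPH aorta and 9.39 to 9.86 in BPN aorta (log2 0.74 ± 0.11, limma adjusted p = 1.87e-05). Hadha, a mitochondrial β-oxidation enzyme, rose on 4 of 5 probe sets (0.83 ± 0.19), and Ldha, a lactate dehydrogenase chain, on 2 of 3 (0.58 ± 0.11). The counts moved with single arrays and settings. Without BPN 14, 3 oxidative phosphorylation subunits and 1 fatty acid oxidation gene rose, with medians of 0.16 and 0.15. Without BPN 12 the oxidative phosphorylation count was also 3, and other arrays left out gave up to 15 and 6. The joint fit of all 67 arrays, at the same medians, called 31 oxidative phosphorylation and 11 fatty acid oxidation genes higher. The carnitine enzyme Cpt2 (0.77 ± 0.20) was not called without BPN 14 (limma adjusted p = 0.0629).

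Brown adipocyte markers moved with these lists, with which they have genes in common. Cox7a1 and Cox8b were also written in the oxidative phosphorylation list, and Ppargc1a and Cpt1b in that of fatty acid oxidation. Levels and counts of these lists are therefore not independent. Of 11 markers 5 rose and 0 fell (median 0.82), and 3 rose without any one of BPH 3, BPH 5, BPH 7, BPH 9, BPH 10, BPN 13 and BPN 14. They had a mean level of 9.47 to 10.82 on BPH arrays (median 10.23), against 9.65, 9.51, 8.99, 8.41 and 9.67 on BPN arrays. Ucp1, the uncoupling protein of brown fat, was at 12.12 to 12.98 in BPH aorta and at 11.42, 11.70, 11.36, 9.84 and 12.19 in BPN aorta (log2 1.37, limma adjusted p = 0.000202), but was not called in the joint fit of all 67 arrays (limma adjusted p = 0.0843). Elovl3, a fatty acid elongase induced in active brown fat, was at 6.44 to 7.81 in BPH aorta (median 7.10), against 3.63, 3.71, 3.01, 4.59 and 3.61 in BPN aorta (9.91-fold higher, log2 3.31 ± 0.39, limma adjusted p = 8.21e-07). Otop1, a proton channel of brown fat, rose (1.86 ± 0.33) with separate groups, and Cidea, a lipid droplet protein of the same cells, gave 0.57 ± 0.27 (limma adjusted p = 0.224). BPN 14 was the lowest of the 14 arrays, and BPH 2 the lowest BPH array, in the brown adipocyte, fatty acid oxidation and oxidative phosphorylation lists alike. Of 11 white adipocyte markers 0 rose and 1 fell, with a median of 0.29 and 10 of the 11 positive. The called gene was Lep, the adipocyte hormone leptin, at 5.16 to 7.30 in BPH aorta and 9.07, 7.57, 7.62, 6.53 and 7.76 in BPN aorta (log2 -1.53 ± 0.38), not called without BPN 11 (limma adjusted p = 0.0516). What part the fat around the vessel has in the fuel oxidation genes was not tested.

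**Figure D4:**
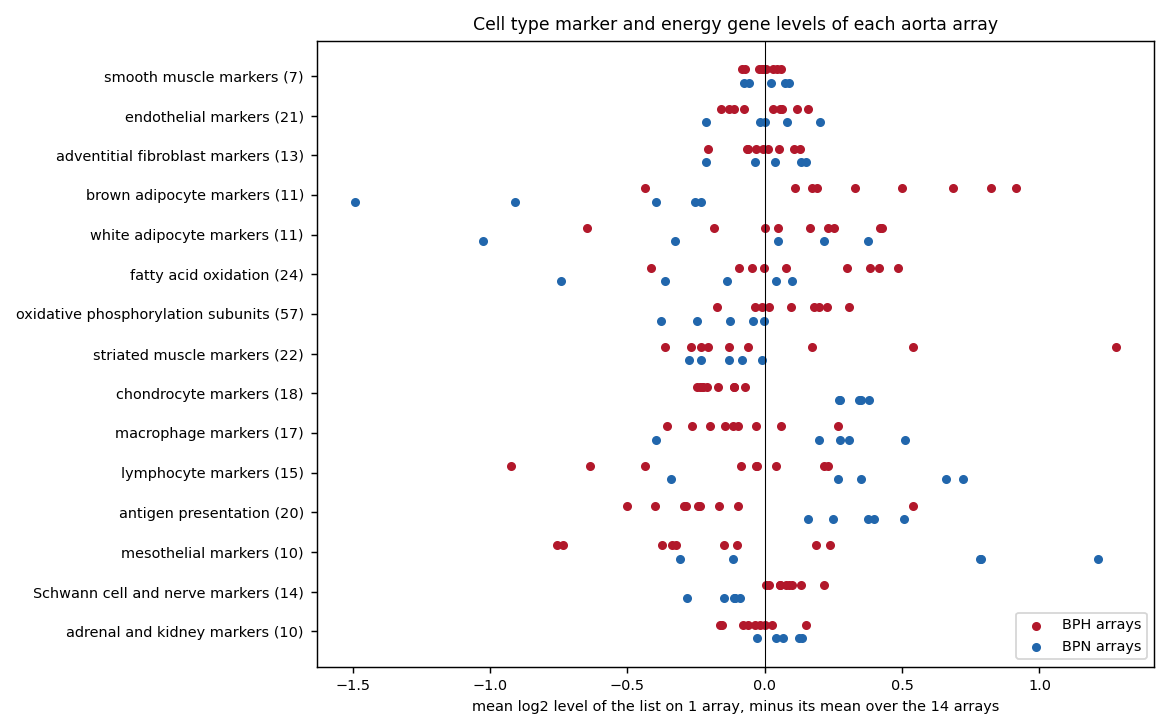
Mean log2 level of 15 lists on each BPH (red) and BPN (blue) aorta array, minus the mean of that list over the 14 arrays (x axis, log2 of intensity; rows, lists with the number of genes). Smooth muscle markers hardly move. Brown adipocyte, fatty acid oxidation and oxidative phosphorylation lists, which have some genes in common, share their lowest array in each strain. BPH 5 stands apart in striated muscle markers, and BPN arrays spread widely in mesothelial markers.

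Immune transcripts were lower in BPH aorta in parts. Of 20 antigen presentation genes 0 rose and 8 fell (median -0.30), and the mean level was 7.60 to 8.64 on BPH arrays and 8.26 to 8.61 on BPN arrays. The highest BPH value belonged to BPH 10, and without it 9 genes fell. H2-DMb1, which loads peptide onto class II molecules, was at 4.45 to 7.05 in BPH aorta (median 5.41), against 7.23, 7.36, 7.05, 6.91 and 6.91 in BPN aorta (log2 -1.58 ± 0.24, limma adjusted p = 4.41e-05). Lymphocyte markers fell in 6 of 15 (median -0.45), with a mean level of 4.18 to 5.34 on BPH arrays and 5.77, 5.83, 5.37, 5.45 and 4.76 on BPN arrays. Only 2 lymphocyte markers were called without BPN 11, BPN 12 or BPN 14, so the size of that count rests on single arrays. Cd22, a B-cell lectin, fell by 1.32 (± 0.26) on 1 of 2 probe sets. C5ar1, the receptor for the complement fragment C5a on myeloid cells, was at 3.16 to 4.95 in BPH aorta (median 3.90), against 6.53, 5.74, 6.12, 5.02 and 5.44 in BPN aorta (3.57-fold lower, log2 -1.84 ± 0.28, limma adjusted p = 3.86e-05). Of 17 macrophage markers 1 rose and 1 fell, and up to 7 fell when 1 array was left out. The one that fell was Timd4, a receptor of resident macrophages (-1.23 ± 0.25). S100a9, a neutrophil calcium-binding protein, rose by 1.66 (± 0.42) with overlapping groups. The share of immune cells in the C5ar1 and class II differences was not tested.

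Mesothelial markers, which come from the lining of the body cavities, spread widely among the BPN arrays. Of 10 markers 1 rose and 3 fell, and their mean level was 5.25 to 6.24 on BPH arrays and 7.21, 6.79, 6.78, 5.89 and 5.69 on BPN arrays. Without BPN 11, BPN 12 or BPN 13 none of the 10 was called lower by limma, against up to 6 without other arrays. Msln, mesothelin, was at 4.46 to 6.62 in BPH aorta and 7.95, 7.07, 7.45, 5.78 and 6.12 in BPN aorta (log2 -1.34 ± 0.38, limma adjusted p = 0.0247). Of 14 Schwann cell and nerve markers 4 rose and 0 fell, with a mean level of 6.51 to 6.72 on BPH arrays and 6.22 to 6.41 on BPN arrays.

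Some of the genes of largest change outside these lists are given here. They were chosen for that size, and their values are a description. Among genes with separate strains, Thumpd1, Gabra3, Mid1 and Gdpd3 rose by more than Aldh1a7. Vtcn1, Ccdc42 and Gm5796 fell by more than Fez1. Aldh1a7, an aldehyde dehydrogenase, was at 7.93 to 9.88 in BPH aorta (median 9.32), against 4.35, 3.97, 4.45, 3.51 and 4.77 in BPN aorta (30.2-fold higher, log2 4.92 ± 0.42, limma adjusted p = 3.89e-09). Vrk1, a nuclear kinase, was at 8.23 to 8.91 in BPH aorta and 3.94, 3.60, 4.37, 4.90 and 4.08 in BPN aorta (log2 4.39 ± 0.14), with its other probe set higher by 0.97. Neto1, an auxiliary subunit of glutamate receptors, rose by 4.34 (± 0.14). Pdxdc1 rose by 4.23 (± 0.10) on 2 of 3 probe sets, the third giving -0.17. Fez1, a kinesin adaptor, was at 6.36 to 7.10 in BPH aorta and 10.34, 10.15, 10.31, 10.09 and 10.21 in BPN aorta, and both its probe sets fell (log2 -3.43 ± 0.14, limma adjusted p = 1.03e-15). Slx1b, a nuclease subunit (-3.41 ± 0.13), and Acpp, an acid phosphatase (-3.04 ± 0.19), each fell on 1 of 2 probe sets, with the other at -0.29 and 0.02.

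Called genes had a neighbour called the same way more often than all genes did, though most had none. Of 372 adjacent pairs with both genes called, 235 had the same direction. Among the 1097 genes called higher that could be placed in order on GRCm38.p6, 18.6% had an adjacent measured gene also called higher, against 11% of all 19083 placed genes. For the 1142 called lower the share with a neighbour called lower was 20.4%, against 11.3%. Among the neighbouring pairs that moved by 1 or more on the log2 scale were Usp53 (1.25) with Myoz2 (3.56), Syn2 (1.32) with Timp4 (1.51), Mcm6 (-2.95) with Cxcr4 (-1.23), C5ar2 (-1.04) with C5ar1 (-1.84), and the class II genes H2-Ab1 (-1.69) with H2-Aa (-1.40). Several called genes named above, Timp4 and C5ar1 among them, therefore lie beside another called gene.

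Most list medians lay on the same side of BPN in BPL aorta. BPL minus BPN was -0.21 for TGF-β/BMP, -0.23 for elastic fibre, 0.58 for fatty acid oxidation and 0.81 for brown adipocyte genes. Opposite signs were seen for prostanoid, caveolae, cell cycle, proteasome, smooth muscle marker, endothelial, mast cell and sympathetic neuron lists. Both contrasts use the same BPN arrays. The BPH minus BPN difference was also measured in heart, kidney and liver on other arrays, with 5 BPH and 5 BPN arrays in each. It was called for 8.45% of genes in heart, 8.63% in kidney and 9.13% in liver. Of the 3513 probe sets called in aorta (9.15% of all), 789 were called in the same direction in heart, which is 22.46% of the aorta calls and 29.28% of the heart calls. Kidney shared 654 (18.62% and 24.17%) and liver 562 (16% and 20.52%). Called in both tissues but in opposite directions were 103 probe sets for heart, 144 for kidney and 175 for liver. In all, 34.22% of aorta calls had the same direction in at least 1 other tissue and 253 had it in all 3. By genes, 770 of the 2243 aorta calls were shared with another tissue in this way. Among the lists the shared calls were 1 of 11 Wnt genes (Sfrp2), 1 of 12 TGF-β/BMP genes (Id2), 1 of 7 elastic fibre genes (Emilin2), 0 of 7 calcium genes and 1 of 8 cyclic AMP genes. They were 7 of 8 for antigen presentation and 7 of 9 for potassium channels. A gene called in 1 tissue and not in another is not thereby shown to differ, so the difference between tissues is given for 18 pairs of a gene and a tissue, chosen with earlier values known, and for Id2 and Sfrp2 against heart, the shared calls named above.

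The 18 passed the interaction test, in which 9.19% of all genes were called for aorta against heart and 11.6% for aorta against kidney. Wif1 had the opposite direction in heart, where it rose by 1.19, and the difference between the tissues was -3.22 ± 0.17 (limma adjusted p = 1.64e-23). Tgfb2 gave 0.03 in heart and rose by 0.63 in kidney, and differed from aorta by -1.05 ± 0.13 and -1.65 ± 0.13 (limma adjusted p = 1.89e-09 and 1.01e-16). Sfrp4 gave 0.02 in heart (difference -1.59 ± 0.14), Smad6 -0.02 (-1.19 ± 0.22), Bmp4 -0.12 (-0.82 ± 0.18), Mmp2 -0.02 (-0.997 ± 0.17) and Itga4 -0.08 (-1.16 ± 0.14). Emilin2, Chad and Thbs1 fell in heart as well (-2.17, -0.77 and -0.70), but less than in aorta. The differences between the tissues were -2.70 ± 0.20, -4.84 ± 0.19 and -1.68 ± 0.25.

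Several tone genes also differed by tissue. P2ry6 fell in kidney by 0.96, against its rise in aorta (difference 2.27 ± 0.18, limma adjusted p = 5.72e-16). Ece1 rose by 0.55 in kidney and Vcam1 fell there by 0.44, both opposite to aorta (differences -1.29 ± 0.15 and 0.84 ± 0.16). Ddah1 rose by 0.50 in heart (difference -1.86 ± 0.23). Sphkap gave -0.49 in heart and was not called there (difference 6.55 ± 0.28), and Elovl3 gave -0.29 (difference 3.60 ± 0.39). Gabra3, a GABA-A receptor subunit, rose in heart too, by 0.87, against 6.23 in aorta (difference 5.36 ± 0.20). By contrast Id2 fell by 0.65 in heart, and its difference between aorta and heart was -0.01 ± 0.17 (limma adjusted p = 0.99). That of Sfrp2, 0.43 ± 0.20, did not pass either (limma adjusted p = 0.215). Aorta RNA was amplified by another protocol than RNA of the other tissues, so tissue and amplification cannot be told apart in these interactions.

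**Figure D5:**
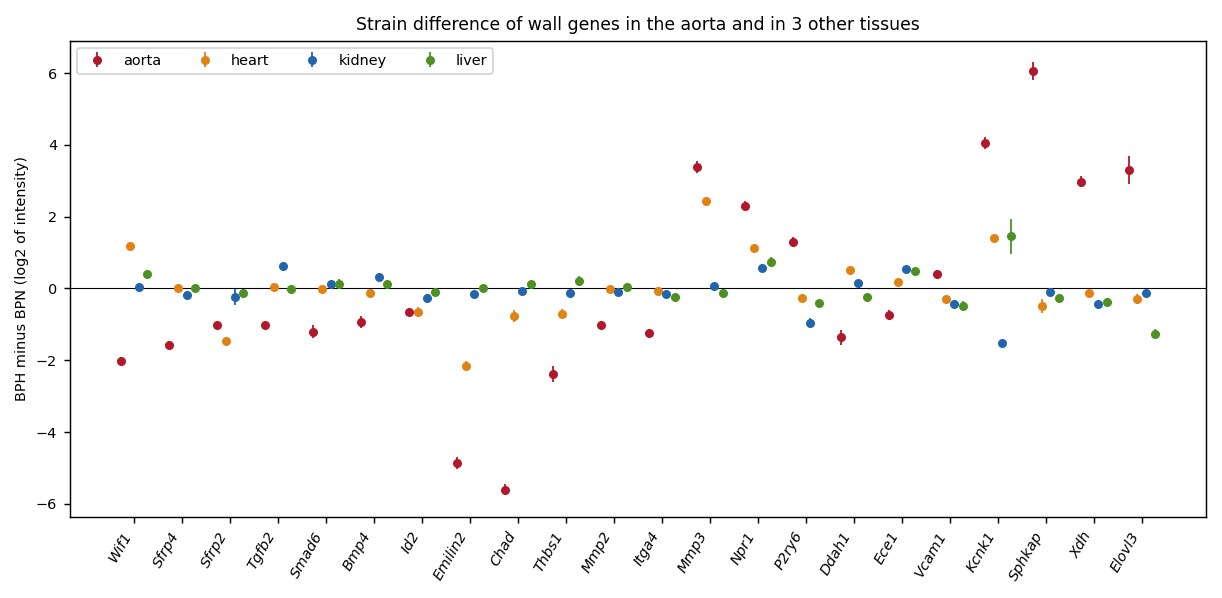
Difference between BPH and BPN (y axis, log2 of intensity) of 22 genes in aorta (red, 9 against 5 arrays), heart (orange), kidney (blue) and liver (green, 5 against 5 arrays each); bars are standard errors of the limma fits. Wif1 lies below 0 in aorta (-2.03) and above it in heart (1.19), Sphkap stands at 6.06 in aorta and -0.49 in heart, and Id2 is at -0.66 in aorta and -0.65 in heart.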

How the data were processed

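RNA of aorta, heart, kidney and liver had been hybridised to a custom Merck/Affymetrix mouse array. The deposited values are linear intensities per probe set, made by the authors with RMA per the submitters' processing notes. No background calls, plate or scan date were used here. Intensities were taken to log2 with a pseudocount of 0 and fitted in limma 3.58.1 (R 4.3.3; lmFit, eBayes) with a mean per strain over the 23 aorta arrays, and p-values were adjusted by Benjamini-Hochberg over 38385 probe sets. The other tissues were fitted separately, and a joint fit of the 67 arrays gave the tests between tissues. Of the probe sets 24478 carried 1 gene symbol. Members and the 52 gene lists were chosen with earlier results of these data known. Named genes were drawn from up to 4 called genes of lowest adjusted p per list and direction, and the list's first 2 genes. The 10 largest changes each way with separate strains were added. Not all of these are given. On simulated data of the aorta comparison, over 38385 probe sets, 67 were moved by 0.5 (log2), 67 by 1 and 66 by 2. The fit recovered 37.3%, 91% and 100% of these changes. Far fewer probe sets were moved than the 3513 called in the real comparison, and the adjustment of p-values depends on that share. The recovered shares therefore hold for the simulated setting only. The number of arrays limits precision. Alternatives covered the arrays fitted, filters, scaling, pseudocount, variance model, array weights and probe sets per gene.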

Additional observations from a re-analysis of the deposited data

Results flagged for a closer look

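Within-strain levels were searched in 462 groups of arrays for an array far from the others of its strain, and 31 were found, where chance gives about 1 in 20. Among genes, the lowest array stood apart for Tgfb2 (BPH 7, 10.80), Ddah1 (BPH 8, 4.97), Cacna1g (BPH 8, 5.54), Ryr2 (BPH 10, 9.32), Arntl (BPH 10, 8.31), Ldha (BPH 2, 11.68), Inhbb (BPN 15, 8.13), Adipoq (BPH 2, 11.52), Ror1 (BPH 5, 9.29) and Rsad2 (BPN 15, 8.35). The highest array stood apart for Bmp6 (BPH 2, 8.26), Col15a1 (BPH 2, 10.05), Spon1 (BPH 2, 9.28), Ece1 (BPH 2, 9.74), Adamts9 (BPH 5, 10.15), Pln (BPH 5, 9.52), Myh6 (BPH 5, 11.02), Gata6 (BPH 2, 11.72), Il15 (BPH 7, 6.91), Sdhc (BPH 10, 11.79), H2-K1 (BPH 10, 10.88) and Kcnk1 (BPN 14, 6.61). Among mean list levels, the lowest array stood apart for collagen processing (BPH 3, 9.32), prostanoids (BPH 8, 6.87), cell cycle (BPN 11, 6.32), apoptosis (BPN 15, 8.76) and complement and coagulation (BPN 14, 8.60). The highest did so for collagens (BPN 12, 10.06), the unfolded protein response (BPH 11, 10.04), interferon-inducible genes (BPH 10, 7.53) and antigen presentation (BPH 10, 8.64).

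The strain difference in aorta differed from that in heart, by the interaction test of the joint limma fit, for Wif1 (-3.22), Sfrp4 (-1.59), Tgfb2 (-1.05), Smad6 (-1.19), Bmp4 (-0.82), Thbs1 (-1.68), Emilin2 (-2.70), Chad (-4.84), Mmp2 (-1.0), Itga4 (-1.16), Ddah1 (-1.86), Sphkap (6.55), Gabra3 (5.36) and Elovl3 (3.60), on the log2 scale. It differed from that in kidney for Tgfb2 (-1.65), P2ry6 (2.27), Vcam1 (0.84) and Ece1 (-1.29).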

How the results depend on the processing

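The 3513 probe sets called in aorta became 7152 in the joint fit of all 67 arrays, 3695 higher and 3457 lower. Leaving out 1 array gave 2808 to 3726, with 1349 to 1828 higher and 1459 to 1898 lower, the fewest without BPN 13. The other alternatives kept these 3 counts within 1.5 times. Shared calls at an unadjusted p in the other tissue were 1215 for heart, 1043 for kidney and 925 for liver, and among aorta changes of 2-fold or more 259, 211 and 180. With 1 array left out they were 696 to 787, 578 to 662 and 505 to 568, and the interaction counts were 2544 to 3208 for heart, 3161 to 3958 for kidney and 3779 to 4517 for liver. Among named genes the sign turned for 5 that were not called. Median centring gave -0.0037 for Myh11 and -0.0027 for Cacna1c. With 1 array left out, Acta2 ran from -0.0382 to 0.0084, Myh11 from -0.0137 to 0.027, Cacna1c from -0.0357 to 0.0837, Myh6 from -0.5807 (without BPH 5) to 0.2992 and Adipoq from -0.0728 (without BPN 14) to 0.2646. The joint fit also moved 43 counts of list members called by over 1.5 times. Eln, not called, was called with a pseudocount of 16 and with the trended, robust prior. The called genes Atp2a2, Nos3, Erg, Cox7a1, Ror1, Itga7, Acan, Loxl3, Kcnk3 and Upk1b lost their call in 7 or more of the 14 fits that left 1 array out, so the list counts that hold them are less firm. No paired analysis was possible because BPH and BPN aorta arrays share only replicate number 11.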
